A study of Mus musculus with 12 samples.

Results

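Ependymal cilia genes and choroid plexus genes were examined in brain RNA of mice with and without the tissue-type plasminogen activator gene Plat. The 10 genes, of 27131 in the deposited table, were chosen by name as markers of 2 epithelia that line or float in the cerebral ventricles. Of these, 6 mark ependymal cells (Foxj1, Ccdc153, Rsph1, Ak7, Rarres2 and Tmem212) and 4 mark the choroid plexus (Ttr, Folr1, Kl and Clic6). They were selected on knowledge of earlier results from these libraries, across the groups and between single libraries of a group, so their levels and differences are given as a description. All 10 passed the filter on low values, a mean of at least 0.5 FPKM, which left 16203 genes to test.

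The study set 3 groups of 4 mice beside each other, each mouse giving 1 library. All were 6 weeks old, with C57BL/6 given as the strain of every sample. WT mice were C57BL/6J animals bought from Jackson Labs, whereas the Plat-/- mice, on the C57BL/6J background, were housed under specific pathogen free conditions. The Plat-/- mice came from 2 independent strains called Old and New in the sample titles, and how each allele was made is not given in the sources used here. Origin therefore goes with genotype in every comparison with WT, and the 2 cannot be told apart. The tissue label is cerebral cortex, but the protocol describes the brain after removal of the olfactory bulb and cerebellum, so ventricle linings were within the dissected tissue. Plat itself stood at 8.43 ± 1.24 FPKM in WT, 1.76 ± 0.296 in Old and 2.88 ± 0.182 in New (SD, n = 4 mice each), with every Plat-/- library below every WT library. FPKM is the fragments of a gene scaled to its transcript length and to all mapped fragments. It keeps no counts, so read depth and counting error are unknown.

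Ependymal cells form the wall of the ventricles and carry tufts of motile cilia that move cerebrospinal fluid across their surface. Foxj1 is the forkhead transcription factor that switches on the genes of motile cilia, and it acts together with factors of the RFX family. The choroid plexus is a vascular tuft inside each ventricle whose epithelium secretes cerebrospinal fluid and exports proteins such as transthyretin into it. In RNA of a whole tissue, fewer cells of a type and less RNA per cell cannot be told apart.

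Promoter sequences were taken from RefSeq for 4 of the 10 genes (Ccdc153, Ak7, Tmem212 and Kl), on build GRCm38.p6. Promoters of the other members were not examined. The sequences used are the 250 bases before each RefSeq start on the gene's own strand. Both strands were searched for the core bound by RFX factors, GTTGCC (reverse GGCAAC), and for the forkhead core GTAAACA (reverse TGTTTAC). Ccdc153 and Ak7 are shown because they held a match and because their Old and New libraries did not overlap, and Kl is shown as a choroid plexus gene with no match. Capitals mark the match.

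Ccdc153 (chr9:44240427-44240676, plus strand): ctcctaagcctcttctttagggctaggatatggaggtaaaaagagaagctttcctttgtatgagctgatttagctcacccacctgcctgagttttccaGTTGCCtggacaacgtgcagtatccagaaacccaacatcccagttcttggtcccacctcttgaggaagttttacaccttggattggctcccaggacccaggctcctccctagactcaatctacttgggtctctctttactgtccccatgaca
Ak7 (chr12:105705732-105705981, plus strand): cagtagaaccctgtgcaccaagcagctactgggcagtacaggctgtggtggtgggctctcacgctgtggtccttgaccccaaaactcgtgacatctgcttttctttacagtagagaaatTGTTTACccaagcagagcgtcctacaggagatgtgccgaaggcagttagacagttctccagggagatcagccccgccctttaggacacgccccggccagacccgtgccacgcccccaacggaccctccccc
Kl (chr5:150952357-150952606, plus strand): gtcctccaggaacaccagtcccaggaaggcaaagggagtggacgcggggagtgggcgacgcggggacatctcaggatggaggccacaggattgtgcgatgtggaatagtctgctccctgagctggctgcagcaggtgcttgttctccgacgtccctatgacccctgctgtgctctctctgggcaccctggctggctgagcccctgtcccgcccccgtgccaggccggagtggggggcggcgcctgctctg

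The Ccdc153 window held GTTGCC from 152 to 147 bases before the start, and the Ak7 window held the forkhead core on its minus strand from 131 to 125 bases before the start. The Tmem212 window (chr3:27896369-27896618, minus strand) held neither motif. Of 32851 RefSeq promoters of this length, 3425 (10.4%) held the RFX core and 1040 (3.17%) held the forkhead core. Among promoters of a wider list of motile cilia genes, 28 of 72 (38.9%) held the RFX core, whereas among those of a wider choroid plexus list 7 of 57 (12.3%) did. The forkhead core was in 2 of 72 (2.78%) and 1 of 57 (1.75%). These are counts of RefSeq promoter entries and not of genes, since a gene can have several entries or none. A match is a description of the letters and not a measured binding site.

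In WT 4 and Old 1, unlike the other 10 libraries, levels deviated with the GC content of the transcript, so values are given with and without them where they bear on a result. Genes with under 40% GC had a median log2 deviation of -0.71 in WT 4 and -0.55 in Old 1, against 0.04 to 0.18 in the others. Genes with at least 60% GC had a median of 0.63 and 0.70, against -0.19 to -0.08 in the others. WT 4 was the lowest of the 12 libraries for 45.1% of all tested genes. The 9 meningeal fibroblast markers did not stand high as a list in WT 4. Their median deviation there was 0.08, inside the -0.37 to 0.27 of the other libraries. Their summed level was 44.7 FPKM in WT 4 and 22.1 to 31.0 elsewhere, but only the collagens Col1a1 (20.0 FPKM) and Col1a2 (9.12 FPKM) were highest in WT 4, and Lum was lowest there (0.739 FPKM). Of 6 blood markers with a row, 4 were highest in WT 4, with a sum of 101.8 FPKM against 45.2 to 84.7 elsewhere. Hba-a2 was at 22.1 FPKM there while its near-identical copy Hba-a1 was lowest there at 6.40 FPKM, and reads of these copies may be divided differently between libraries.

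The ependymal genes were low, between 0.784 FPKM on average for Ak7 and 6.398 for Rarres2. Foxj1 (mm10 chromosome 11, 116330704 to 116335399, minus strand) measured 2.19, 1.76, 2.45 and 3.23 FPKM in WT 1 to 4, 3.37, 1.89, 2.30 and 2.42 in Old 1 to 4, and 2.58, 2.39, 1.82 and 2.43 in New 1 to 4. Group means were 2.41 ± 0.619, 2.49 ± 0.625 and 2.30 ± 0.335 FPKM (SD, n = 4), and the groups overlapped throughout. The highest values were those of WT 4 and Old 1, which lay 0.59 and 0.60 above the mean of the other 3 libraries of their group on the log2 scale. The Foxj1 transcript holds 61.4% GC, above the 46.5% to 54.4% of the other 9 members. With the trend on GC content removed, the same values were -0.19 and -0.22, so these libraries then lay below the rest of their groups. Without WT 4 and Old 1 the means were 2.13 ± 0.350 in WT and 2.20 ± 0.280 in Old (SD, n = 3 each).

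Ccdc153, a coiled-coil protein gene of motile cilia, separated the 2 Plat-/- strains (chromosome 9, 44240676 to 44247306, plus strand). It measured 1.36, 1.42, 2.16 and 1.57 FPKM in WT 1 to 4. It measured 2.38, 2.33, 1.87 and 2.58 in Old 1 to 4, and 1.60, 1.59, 1.55 and 1.48 in New 1 to 4. Every Old library was above every New library, while WT 3 fell inside the range of Old. Old exceeded New by 0.52 (SE 0.14, 95% interval 0.20 to 0.84) and WT by 0.48 (SE 0.14, 0.17 to 0.80) in log2(FPKM + 0.1), but neither difference passed the threshold after Benjamini-Hochberg adjustment over all tested genes in limma (adjusted p = 0.985 and 1). Without WT 4 and Old 1 the differences were 0.50 and 0.45, with adjusted p of 0.962 and 0.778 in limma. New and WT differed by -0.04 (-0.35 to 0.28).

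Rsph1 encodes a protein of the radial spoke head, the part of the cilium that passes signals between its central pair and its outer doublets. The gene (chromosome 17, 31255019 to 31277383, minus strand) measured 2.66, 2.93, 2.88 and 2.58 FPKM in WT 1 to 4, 2.65, 2.23, 2.57 and 3.21 in Old 1 to 4, and 2.31, 2.06, 1.98 and 2.33 in New 1 to 4. Every New library was below every WT library, and Old 2 was the only Old library inside the range of New. New was 0.34 below WT on the log2 scale (-0.34, SE 0.11, 95% interval -0.58 to -0.09), with an adjusted p of 0.965 in limma. Without WT 4 and Old 1 the value was -0.37 (adjusted p = 0.359, limma). Old exceeded New by 0.28 (0.03 to 0.52), with an adjusted p of 0.985 in limma.

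Ak7, an adenylate kinase of the cilium (chromosome 12, 105705976 to 105782447, plus strand), was the lowest of the members. It measured 0.774, 0.811, 0.899 and 0.525 FPKM in WT 1 to 4, 0.855, 0.952, 0.839 and 0.885 in Old 1 to 4, and 0.650, 0.757, 0.746 and 0.715 in New 1 to 4. Every Old library was again above every New library, and WT 4 was the lowest of all. The difference between Old and New was 0.27 (SE 0.16, 95% interval -0.07 to 0.61, limma). Without WT 4 and Old 1 it was 0.28 (0.05 to 0.51), with an adjusted p of 0.962 in limma. Within groups its log2 SD over all 12 libraries was 0.18, with 13.1% of the 3243 genes within 2-fold of its level lower. Over the 10 libraries without WT 4 and Old 1 it was 0.09, with 4.19% lower.

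Rarres2 and Tmem212 showed no order between the groups. Rarres2 encodes chemerin, a secreted chemoattractant, and was the most abundant ependymal member at 6.45 ± 0.906, 6.64 ± 0.644 and 6.11 ± 0.451 FPKM in WT, Old and New (SD, n = 4). It ran from 5.48 in New 2 to 7.75 in WT 2. It overlaps Lrrc61 on the opposite strand over 892 exonic bases, and the library kit does not mark strand, so reads there cannot be given to one gene. Tmem212, a transmembrane protein gene, stood at 1.39 ± 0.471, 1.31 ± 0.314 and 1.33 ± 0.136 FPKM (SD, n = 4). WT 4 was its lowest library at 0.782, 0.93 below the mean of the other 3 WT libraries on the log2 scale, and 0.59 below with the GC trend removed (-0.93 and -0.59).

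**Figure D1:**
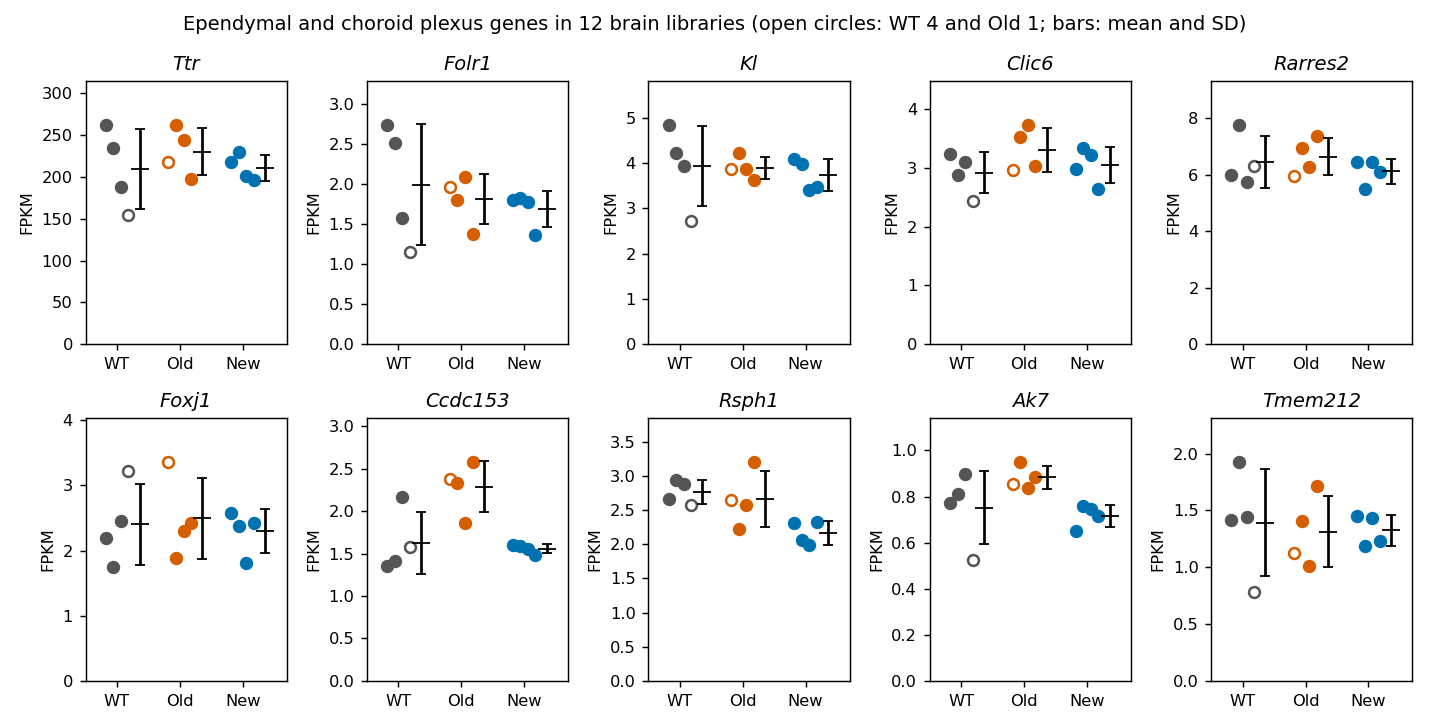
FPKM of the 10 genes in each of the 12 libraries, on axes that start at 0, with open circles for WT 4 and Old 1 and black bars for the mean and SD of 4 libraries. The 4 Old libraries lie above the 4 New libraries for Ccdc153 and Ak7, and WT 4 is the lowest point for all 4 choroid plexus genes.

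Transthyretin was by far the most abundant member. Ttr encodes the carrier that the choroid plexus secretes to move thyroxine and retinol through the fluid (chromosome 18, 20665280 to 20674321, plus strand). It measured 262.4, 234.5, 188.3 and 154.3 FPKM in WT 1 to 4, 217.8, 262.1, 244.2 and 197.8 in Old 1 to 4, and 217.5, 230.2, 200.6 and 195.8 in New 1 to 4. Its rank among all genes of the table ran from 92 in WT 1 to 203 in WT 4. Group means were 209.9 ± 48.0, 230.5 ± 28.4 and 211.0 ± 15.8 FPKM (SD, n = 4), and the groups overlapped. Without WT 4 and Old 1 the WT mean was 228.4 ± 37.4 and the Old mean 234.7 ± 33.1 (SD, n = 3). Within groups the log2 SD of Ttr over all 12 libraries was 0.23, close to the median of 0.20 for the 296 genes within 2-fold of its level. Over the 10 libraries without WT 4 and Old 1 it was 0.19, where the median of those genes was 0.06.

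Folr1, the folate receptor that carries folate from blood to cerebrospinal fluid (chromosome 7, 101858331 to 101870788, minus strand), had the largest ratio of highest to lowest library after Tmem212. It measured 2.73, 2.50, 1.57 and 1.146 FPKM in WT 1 to 4, 1.96, 1.80, 2.09 and 1.38 in Old 1 to 4, and 1.80, 1.82, 1.77 and 1.36 in New 1 to 4. The ratio of highest to lowest was 2.39 within WT, 1.52 within Old and 1.34 within New. Folr1 overlaps Anapc15 on the opposite strand over 7074 bases, none of them exonic in both.

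Kl and Clic6 had their lowest value in WT 4 as well. Kl encodes klotho, a membrane and secreted protein best known as a co-receptor for a phosphate-regulating growth factor (chromosome 5, 150952607 to 150993817, plus strand). Kl measured 4.85, 4.22, 3.95 and 2.72 FPKM in WT 1 to 4, 3.88, 4.23, 3.88 and 3.63 in Old 1 to 4, and 4.09, 3.99, 3.40 and 3.47 in New 1 to 4. Clic6, of the chloride intracellular channel family (chromosome 16, 92485736 to 92541243, plus strand), measured 3.23, 2.88, 3.10 and 2.44 FPKM in WT, 2.96, 3.52, 3.73 and 3.03 in Old, and 2.99, 3.34, 3.22 and 2.64 in New, in the order of replicates 1 to 4. For both genes WT 1 was the highest and WT 4 the lowest WT library, and all 3 groups overlapped.

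The choroid plexus genes ranged more widely among the WT libraries than among those of Old or New, as did some other sets of genes. The median deviation of the 4 genes from the 12-library mean ran from -0.48 in WT 4 to 0.31 in WT 1 on the log2 scale, a range of 0.79. The range was 0.30 within Old, between Old 4 and Old 3, and 0.25 within New, between New 4 and New 2. Without WT 4 the WT range was 0.39, between WT 3 and WT 1. In WT, Old and New the range was 0.34, 0.17 and 0.08 for the wider motile cilia list. It was 1.64, 0.51 and 0.26 for hypothalamic markers and 0.71, 0.31 and 0.25 for medial habenula markers. WT was not the widest for the ependymal members (0.25, 0.27 and 0.10), meningeal markers (0.17, 0.63 and 0.40) or blood markers (0.68, 0.24 and 0.76). The group means of the choroid plexus median were -0.03, 0.07 and -0.03 in WT, Old and New. Means of 4 libraries vary less than single libraries, so they are not set against these ranges. Old 1, whose GC shift resembled that of WT 4, had a median of 0.02. With the GC trend removed, WT 4 lay 0.08 below the mean of the other 3 WT libraries for Ttr (-0.08) instead of -0.55, at -0.28 instead of -0.65 for Kl, and at -0.24 instead of -0.32 for Clic6. For Folr1 it lay at -0.98 instead of -0.89. The blood sum and the 2 collagens named above were also highest in WT 4, and their part in these values was not tested.

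**Figure D2:**
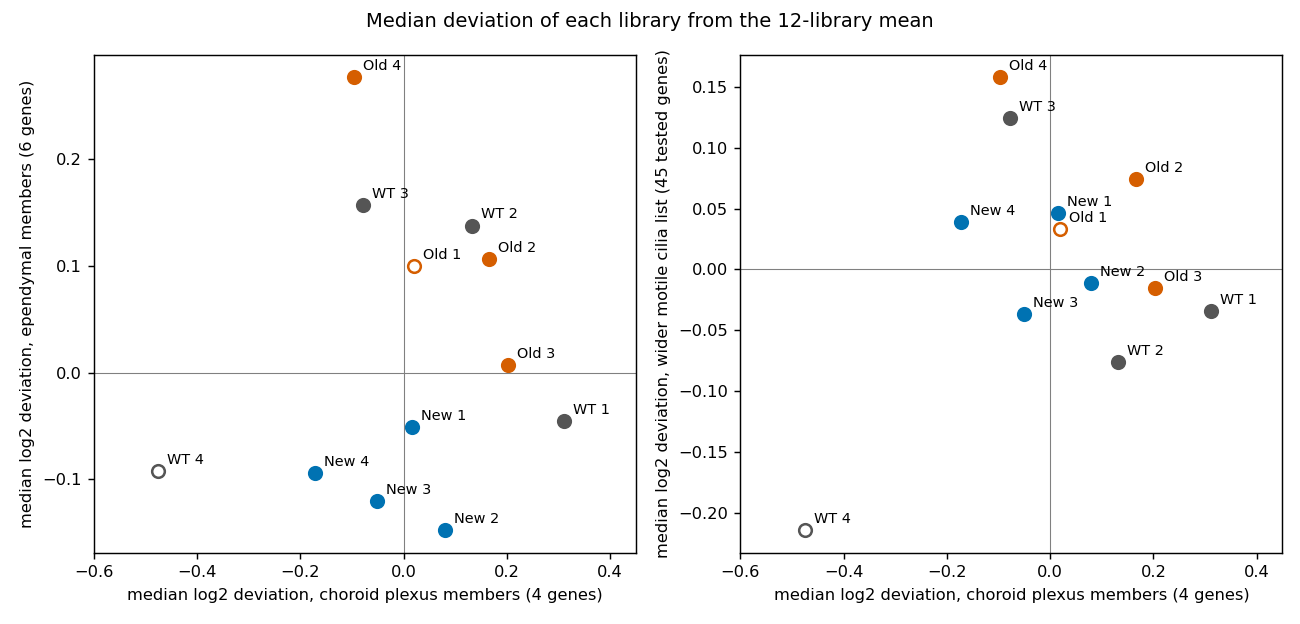
Median log2 deviation of each library from the 12-library mean, with the 4 choroid plexus members on both horizontal axes, the 6 ependymal members on the left vertical axis and 45 other motile cilia genes on the right one. Open circles mark WT 4 and Old 1. WT 4 lies lowest on the horizontal axes at -0.48, and the 4 New libraries lie below 0 on the left vertical axis and close to 0 on the right one.

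In the ependymal set the median deviation ran from -0.15 to -0.05 in the 4 New libraries, from 0.01 to 0.28 in Old and from -0.09 to 0.16 in WT. The Old range of 0.27 was 0.10 without Old 4, close to that of New, and the New range of 0.10 was 0.20 with a filter at a mean of 1 FPKM, which leaves out Ak7. Every Old library was above every New library in this median, which rests on the same values of Ccdc153, Rsph1 and Ak7 described above. The wider motile cilia list did not separate the strains in this way, since its median ran from -0.02 to 0.16 in Old and from -0.04 to 0.05 in New.

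None of the 10 members passed limma at an adjusted p of 0.05 in any comparison, and each comparison called few genes of any kind. For Old against WT, 0 of 10 members passed, where 0.0247% of tested genes did. At an unadjusted p under 0.05 there was 1 (Ccdc153), with 1.67% over all tested genes, and 0 members had groups that did not overlap, with 1.1% over all. For New against WT, 0 passed against 0.00617%, 1 (Rsph1) had an unadjusted p under 0.05 against 2.22%, and 1 (Rsph1) had no overlap against 2.6%. For Old against New, 0 passed against 0.0123%, 2 (Ccdc153 and Rsph1) had an unadjusted p under 0.05 against 1.14%, and 2 (Ccdc153 and Ak7) had no overlap against 1.79%. Since the members were chosen with these values in view, nothing is read from these counts. Across the 10 members the median log2 difference was 0.05 for Old minus WT, -0.04 for New minus WT and 0.11 for Old minus New, beside 0.03, 0.06 and -0.03 over all tested genes. The p-values rest on the spread between mice within groups, pooled over all 3 groups and so including WT 4 and Old 1. The comparisons share groups, so their values are given side by side only.

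**Figure D3:**
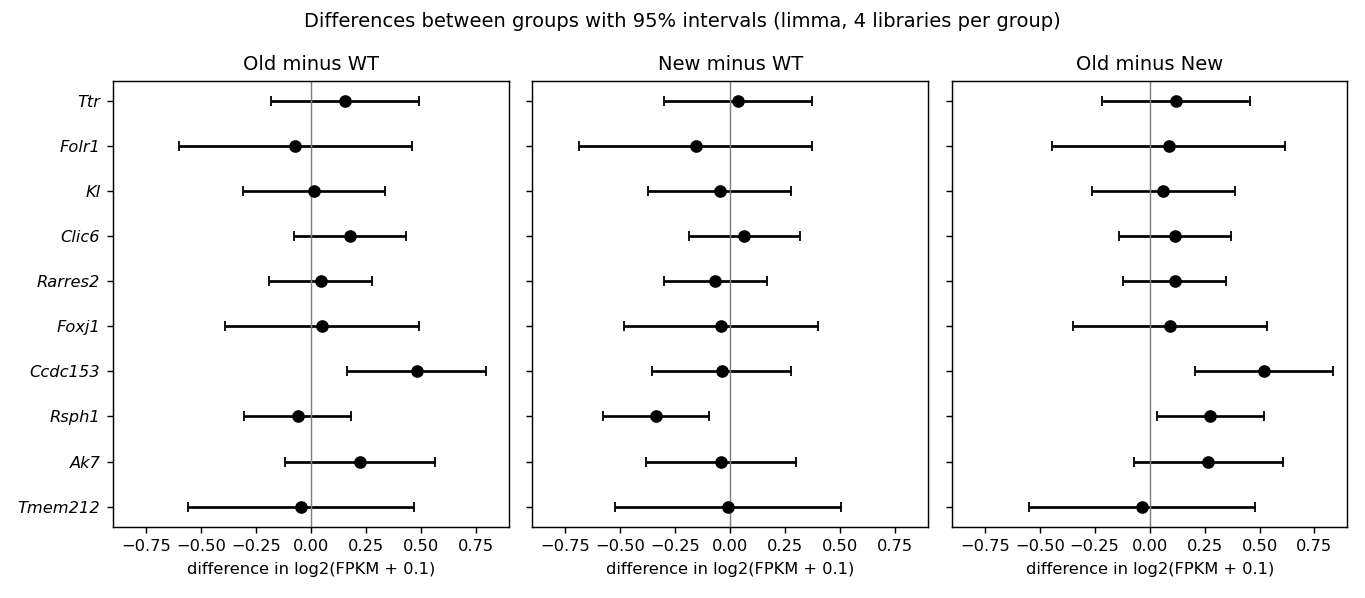
Difference in log2(FPKM + 0.1) of each gene for Old minus WT, New minus WT and Old minus New, with points for the limma estimate and bars for its 95% interval. The bars exclude 0 for Ccdc153 in both comparisons with Old, for Rsph1 in New minus WT and in Old minus New, and for no other member, before any adjustment for the 16203 tested genes.

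The intervals of the choroid plexus genes spanned 0 in all 3 comparisons. For Ttr, Old minus WT was 0.16 (SE 0.15, 95% interval -0.18 to 0.49) and New minus WT was 0.03 (-0.30 to 0.37). For Kl they were 0.02 (-0.31 to 0.34) and -0.05 (-0.37 to 0.28), and for Clic6 0.18 (-0.07 to 0.43) and 0.06 (-0.19 to 0.32). Folr1 had the widest intervals, at -0.07 (-0.60 to 0.46) and -0.16 (-0.69 to 0.37). Without WT 4 and Old 1, Folr1 was at -0.33 (-0.83 to 0.16) and -0.38 (-0.84 to 0.08), and Kl at -0.14 (-0.37 to 0.08) and -0.21 (-0.42 to 0.00), none with an adjusted p under 0.05 in limma. Differences of about the size of these bounds therefore could not be told from none.

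Other genes of the motile cilium gave the same count. Of 72 genes listed for known roles in cilia, 70 had a row and 45 were tested, and 0 passed limma in any comparison. At an unadjusted p under 0.05 there were 1, 1 and 2 for Old minus WT, New minus WT and Old minus New. Over all tested genes the shares were 1.67%, 2.22% and 1.14%. The median log2 difference was 0.07, 0.06 and 0.05, beside 0.03, 0.06 and -0.03 over all tested genes. Rfx3, one of the RFX factors that act with Foxj1, was the most abundant of the list at 11.0 ± 2.99 FPKM in WT, 11.5 ± 2.88 in Old and 12.5 ± 0.171 in New (SD, n = 4), with the lowest value in WT 4 at 6.71. Ccdc39, needed to assemble the inner dynein arms, stood at 8.38 ± 1.70, 8.29 ± 1.62 and 8.77 ± 0.723 FPKM. Mns1, an inner protein of the ciliary doublets, was higher in every Old than in every New library at 1.09 ± 0.0549 against 0.811 ± 0.142 FPKM, with an adjusted p of 0.985 in limma. Zbbx lay the other way, at 0.672 ± 0.164 FPKM in Old and 1.03 ± 0.117 in New, with a larger log2 difference (-0.57 against 0.39 for Mns1) and the same adjusted p. Both were named after their values were seen. For Old against WT, New against WT and Old against New, 0, 0 and 1 tested genes of the list had no overlap. Over all tested genes the shares were 1.1%, 2.6% and 1.79%.

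The wider choroid plexus list also gave 0 calls in limma, among 40 tested of 46 with a row and 47 listed. At an unadjusted p under 0.05 there were 2, 0 and 1, where the shares over all tested genes were 1.67%, 2.22% and 1.14%. The median log2 differences were 0.01, 0.00 and 0.00, beside 0.03, 0.06 and -0.03 over all tested genes. Enpp2, a secreted enzyme that makes lysophosphatidic acid and that oligodendrocytes also express, stood at 115.4 ± 27.6, 118.7 ± 15.5 and 117.8 ± 9.06 FPKM in WT, Old and New (SD, n = 4). It was lowest in WT 4 at 74.8. The genes of at least 1 FPKM with the largest ratios of highest to lowest were Cox8b, from 0.544 in Old 3 to 2.29 in WT 1, and Prlr, the prolactin receptor, from 0.949 in WT 4 to 3.90 in Old 4. Igfbp2, a secreted binder of insulin-like growth factors that meningeal cells also make, went the other way and was highest in WT 4 at 30.6, with 9.93 in New 2. Its spread was wide in Old too, at 16.4 ± 8.57 FPKM against 16.2 ± 9.63 in WT and 11.3 ± 1.11 in New (SD, n = 4). One gene of the list, 1500015O10Rik, was higher in every Old library than in every WT and every New library, at 4.64 ± 0.791 against 3.28 ± 0.505 and 3.76 ± 0.336 FPKM. Its adjusted p was 1 and 0.985 in limma. Perp, a membrane protein gene of the same list, lay lower in Old, at 1.42 ± 0.307 FPKM against 1.84 ± 0.101 in WT and 1.73 ± 0.0515 in New, with overlap and with the same adjusted p values. Both genes were named after their values were seen. In the 3 comparisons, in the order above, 1, 0 and 2 tested genes of the list had no overlap. Over all tested genes the shares were 1.1%, 2.6% and 1.79%.

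WT 4 was the lowest library for 6 of the 10 members, namely all 4 choroid plexus genes, Ak7 and Tmem212. It was also lowest for 17 of 40 genes of the wider choroid plexus list (42.5%) and 19 of 45 of the cilia list (42.2%), against 45.1% of all tested genes. WT 1 was the highest library for 3 of the 4 choroid plexus members (Ttr, Folr1 and Kl) and for 22.5% of the wider choroid plexus list, against 9.62% of all tested genes.

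The choroid plexus members tended to rise and fall together between libraries of a group. Pearson's r was taken over the 10 libraries other than WT 4 and Old 1, on log2 values centred in each group, as a description with no test. Libraries share their depth and composition across genes, and a group mean is subtracted from only 3 or 4 of them. All 6 choroid plexus pairs had a positive r, with a median of 0.62. Ttr and Folr1 had an r of 0.88 (Spearman's rho 0.78), and Ttr and Kl had 0.87 (rho 0.81). The lowest were Ttr with Clic6 at 0.54 (rho 0.56) and Kl with Clic6 at 0.435 (rho 0.22). Over all 12 libraries with the GC trend removed, those with Clic6 were 0.29 and 0.33. Beside them, r of Ttr with 16180 tested genes ran from -0.65 at the 5th percentile to 0.68 at the 95th. Leaving out the 2 libraries farthest from the median of Ttr gave 0.68 and 0.87 over 8 libraries. Over all 12 libraries the median of the 6 pairs was 0.78. Over the same 10 libraries all 4 members had a negative r with the median of 9 meningeal fibroblast markers, at -0.75 for Ttr, -0.70 for Kl, -0.58 for Folr1 and -0.54 for Clic6. Over 12 libraries these were -0.43, -0.38, -0.44 and -0.20, and the part of those markers was not tested. In the same gene order, r with the median of 24 wider cilia genes was -0.82, -0.51, -0.94 and -0.54 over 10 libraries. Over 12 it was -0.02, 0.25, -0.23 and 0.12. With the median of 29 wider choroid plexus genes it was 0.22, 0.34, 0.13 and -0.25 over 10 libraries. Over 12 it was 0.74, 0.82, 0.65 and 0.59. The ratio of Ttr to Kl, both in FPKM, stayed between 47.7 in WT 3 and 63.01 in Old 3, and that of Ttr to Folr1 between 93.7 and 145.6.

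The ependymal members were less uniform. Of 15 pairs, 9 had a positive r over the 10 libraries, and the median was 0.27, against 0.19 over all 12. Rarres2 and Tmem212 had 0.86, with 0.60 over all 12 and 0.89 over the 8 libraries without WT 2 and WT 3. Ccdc153 and Ak7, the 2 genes that were higher in all Old than in all New libraries, had 0.62 within groups, but 0.30 over all 12 libraries and 0.33 over the 8 without Old 3 and WT 3. Between the sets, 3 of 24 pairs were positive and the median was -0.36. The lowest was Ccdc153 with Folr1 at -0.82, with -0.53 over all 12 and -0.63 over the 8 libraries without Old 3 and WT 3. Over all 12 libraries the median between the sets was -0.10. All pairs of Ak7 or Tmem212 with a choroid plexus gene were then positive, such as 0.68 for Ak7 and 0.59 for Tmem212 with Kl. All pairs of Foxj1, Ccdc153 or Rsph1 with a choroid plexus gene were negative, and those of Rarres2 were mixed and close to 0 for Ttr and Folr1 (both 0.03). The negative r between the sets thus rests, in size and for some genes in sign, on leaving out WT 4 and Old 1.

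**Figure D4:**
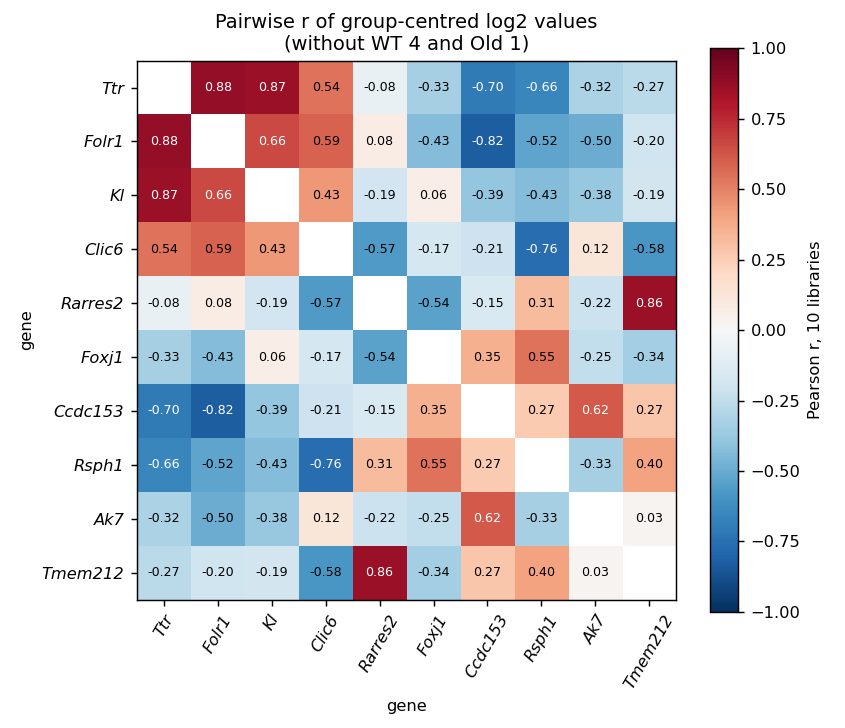
Pearson r for each pair of the 10 genes over the 10 libraries other than WT 4 and Old 1, on log2 values centred in each group, from blue (-1) to red (1). The red block at the upper left holds the 4 choroid plexus genes, and most cells that pair one of them with an ependymal gene are blue.

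The genes of the wider lists were set beside Ttr and Ccdc153 in the same way. Of 45 tested cilia genes, 35 had a positive r with Ccdc153 and the median was 0.48, where 45.8% of 16180 tested genes were positive with a median of -0.05. The dynein heavy chains Dnahc6 and Dnahc7b (r of 0.97 and 0.95) and the radial spoke gene Rsph4a (0.84) were the highest. Over all 12 libraries they had 0.60, 0.49 and 0.29. All cilia genes besides the 35 were negative with Ccdc153, the lowest being Lrrc6 at -0.51 and Capsl at -0.34 (-0.18 and -0.28 over all 12). With Ttr, 10 of the 45 cilia genes were positive and the median was -0.36, where 51.0% of all genes were positive with a median of 0.01. Of 40 wider choroid plexus genes, 23 were positive with Ttr, with a median of 0.17, beside the same 51.0% and 0.01 over all genes. Highest were the bicarbonate transporter Slc4a5 (0.85), the secreted inhibitor Sostdc1 (0.79), the ion channel Trpv4 (0.78) and Enpp2 (0.77). Over all 12 libraries these 4 had 0.83, 0.47, 0.40 and 0.81. All choroid plexus genes besides the 23 were negative, the lowest being Igf2 at -0.76 and Sulf1 at -0.51. Over all 12 libraries those had -0.10 and 0.48. Over all 12 libraries the medians were 0.27 for cilia genes with Ccdc153, 0.11 for cilia genes with Ttr and 0.46 for choroid plexus genes with Ttr, so the negative median of cilia genes with Ttr was not seen there.

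**Figure D5:**
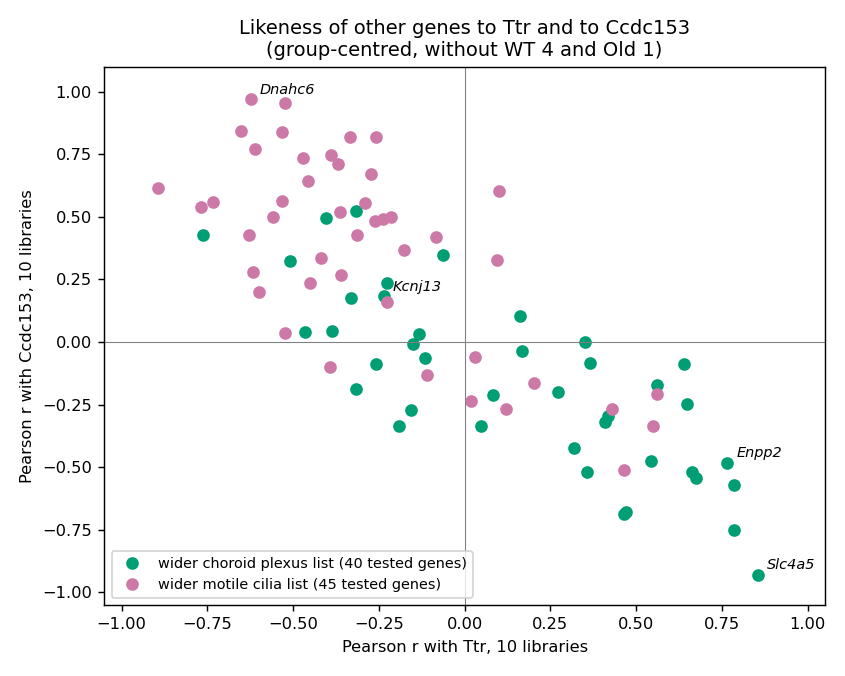
Pearson r with Ttr (horizontal) and with Ccdc153 (vertical) over the 10 libraries other than WT 4 and Old 1, for 40 tested genes of the wider choroid plexus list (green) and 45 of the wider motile cilia list (pink). Most cilia genes lie at the upper left; Ttr and Ccdc153 themselves had an r of -0.70, so the axes are not independent.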

How the data were processed

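Brain RNA of 12 mice was analysed, 4 per group, grouped by their titles. Per the labels' protocols, polyA-selected RNA of brain tissue was made into libraries with a TruSeq mRNA v2 kit, whereas a label on each sample calls the libraries depleted of ribosomal RNA. Values are the FPKM that the authors deposited for 27131 genes. The build was mm10, and Cuffdiff 2.1.1, Cufflinks, Bowtie2 2.1.0, FastQC and TopHat2 2.0.9 were run, per the submitters' processing notes. Which annotation, strand setting and scaling between libraries were used is not given in the sources used here. Without counts the depth is unknown, and only the spread between mice gives the precision.

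Genes with a mean of at least 0.5 FPKM were tested (16203). All 3 groups were fitted together on log2(FPKM + 0.1) by limma (version 3.58.1, R 4.3.3) with a trended empirical Bayes prior, a scale that understates changes of low genes. P-values were adjusted by Benjamini-Hochberg over all tested genes, with a threshold of 0.05. The procedure was run on simulated data with noise drawn independently for each gene. That simulation held no GC shift like that of WT 4 and Old 1, so it does not show how the procedure behaves with one. Coordinates and GC content came from GENCODE M21 on mm10 and promoters from RefSeq. GC content, from the longest transcript, was known for 98.2% of tested genes. The members, wider lists, motifs and tests were chosen with earlier results of these data known, as was the setting apart of WT 4 and Old 1. Beside the members, the rule for named genes took the most abundant and most variable genes of each wider list and, for each member, the genes with the most similar values. Exceptions are marked, and not every gene the rule took is printed. The genes named for their r with Ttr or Ccdc153 were also chosen after their values were seen. Alternatives changed the pseudocount, filter, scaling, groups in the fit, library weights and libraries. Removing a lowess trend on GC content (span 0.3) was added after the data were seen.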

Additional observations from a re-analysis of the deposited data

Results flagged for a closer look

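One library was marked as far from the others of its group. Folr1 stood at 1.36 FPKM in New 4, while the other 3 New libraries lay between 1.77 and 1.82. The gap was large against the range of the group by Dixon's criterion. In all, 36 groups of 4 libraries were examined, and chance alone meets the criterion in about 1 of 20 groups. New 4 was also the lowest New library for Ttr (195.8 FPKM) and Clic6 (2.64 FPKM), but not for Kl, where New 3 was lower. The meningeal markers summed to 31.0 FPKM in New 4, the highest of the New libraries, and to 30.05 in New 3, where Folr1 was at 1.77. In Old 3 and Old 4, sums of 30.25 and 29.98 FPKM stood beside the highest and the lowest Folr1 of Old, 2.09 and 1.38. The part of these markers in the Folr1 value was not tested.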

How the results depend on the processing

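Under 22 alternatives, 0 of the 10 members and 0 genes of the wider lists passed limma in any comparison, and the lowest adjusted p of a member was 0.294. Of 30 member differences, 12 kept their sign under every alternative, and 55 of 657 values had the other sign. The within-group ranges of the set medians moved more. The choroid plexus range in WT, 0.79 as reported, was 0.38 without WT 4 and Old 1 and 0.45 with the GC trend removed, and leaving out 1 library at a time gave 0.39 to 0.79. With each library left out in turn, the choroid plexus range in New (0.25) ran from 0.14 to 0.26, the ependymal range in Old (0.27) from 0.10 to 0.28 and that in New (0.10) from 0.0547 to 0.14. The lowest of these came without WT 4, New 4, Old 4 and New 1. The ependymal range in New was 0.20 with the filter at a mean of 1 FPKM, which leaves out Ak7. Ranges were not recomputed for the fits with fewer groups or with library weights, which do not change them. No paired analysis was possible because the sample titles give no number that the groups share. With 4 mice per group and unknown depth, differences inside the intervals given could not be told from none.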

Other observations

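Among genes of at least 1 FPKM, those whose values were most like Foxj1 and Ccdc153 over all 12 libraries were in neither the cilia nor the choroid plexus list. With log2 values centred in each group, the gene most like Foxj1 was Mrps9 (r of 0.97), a mitochondrial ribosomal protein gene, followed by Jun (0.95). Over the 10 libraries without WT 4 and Old 1, Mrps9 had 0.93 and Jun 0.89. The gene most like Ccdc153 over 12 libraries was Irs4, an insulin receptor substrate (0.91, and 0.95 over 10), and Cartpt, a neuropeptide gene, had 0.89 on both. These are the highest of many r values over few libraries, and no test was made of them.

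Markers of neighbouring structures differed between libraries without separating the groups. The summed level of 7 hypothalamic neuropeptide genes ran from 15.3 FPKM in WT 2 to 41.4 in Old 1, and that of 5 medial habenula markers from 7.00 in WT 4 to 10.7 in Old 3. None of the 4 pineal markers passed the filter. Of 3 listed markers of tanycytes of the third ventricle, Rax was at 0 in 8 of 12 libraries. The others were at 0 in no library, with means of 0.293 FPKM for Gpr50 and 1.89 FPKM for Col23a1, and only Col23a1 passed the filter.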
